A study of Mus musculus with 6 samples.

Results

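Genes that control glutathione, remove reactive oxygen species or bind metals were measured in quiescent stem cells and in activated ones from the ventricular-subventricular zone of adult mice, the germinal layer beside the lateral ventricles. The set holds 43 genes, listed by name: 12 glutathione S-transferases, 5 glutathione peroxidases, 4 genes of glutathione synthesis and reduction, 7 peroxiredoxin and sulfiredoxin genes, 4 superoxide dismutase and catalase genes, 4 genes of the thioredoxin system, 4 genes of the Nrf2 and Keap1 branch and 3 metallothioneins. A gene was measured by the brightest of its probe sets, the groups of oligonucleotides that report one transcript, among those annotated to 1 gene. Of the 43 genes, 40 had such a probe set, out of 18193 genes on the array. The probe sets of Prdx1 were each annotated to 2 genes and were left out, and Prdx5 and Prdx6 were not analysed here. A filter on dim genes left 38 of the 40 for testing, among 11575 genes in all. Gstt3 and Sod3 did not reach it and are described by their values. Both tested genes with a group mean under the filter, Gstt2 and Gpx3, passed it through their quiescent arrays.

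All cells came from adult brains and carried a GFAP::GFP reporter, in which GFAP promoter sequence drives GFP. Both sorts took GFP-positive cells with CD133 and without CD24 on their surface, and the activated sort also required EGFR, for which the labels of the quiescent cells name no gate. Each group had 3 one-colour arrays that the labels call biological replicates. The sources used here do not give strain, age, sex or the number of animals behind an array, and 3 arrays a group limit the precision. Reporter and surface antigens define these cells, so the populations are those the sort gates hold, and in sorted bulk samples fewer cells of a type and less RNA per cell cannot be told apart. Levels are log2 MAS5 signals. A difference is the activated mean minus the quiescent mean of these, ± SE from the limma fit, with Benjamini-Hochberg adjusted p over all tested genes (n = 3 arrays per group).

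Glutathione is the main small thiol of animal cells. It is made by glutamate-cysteine ligase and glutathione synthetase, used by peroxidases to reduce peroxides and by transferases to tag reactive compounds, and restored by glutathione reductase with NADPH. Thioredoxins and peroxiredoxins form a parallel thiol system, superoxide dismutases turn superoxide into hydrogen peroxide, and metallothioneins are small cysteine-rich proteins that bind zinc and copper. The transcription factor Nrf2, encoded by Nfe2l2 and held in check by Keap1, induces many of these genes. In the brain astrocytes are known for high glutathione, and adult neural stem cells share many astrocyte genes.

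The genes behind the sort differed by 2.11 (Egfr), -1.22 (Prom1, which encodes CD133), -4.18 (Gfap) and 4.13 (Cd24a). Although both sorts excluded CD24 on the surface, Cd24a RNA was bright on activated arrays, with a mean of 13.39 against 9.26 on quiescent arrays. The reason was not tested, and it limits what the gate says of the activated cells. Marker genes of other cells also moved with the groups, by their summed linear signal. The 8 matched of 9 mature oligodendrocyte markers summed to 16676 to 65837 on quiescent and 2196 to 5504 on activated arrays, and 9 of 9 ependymal markers to 1615 to 1738 and 192 to 295. The sums were 997 to 3284 and 146 to 236 for 8 of 9 endothelial markers, and 4600 to 8598 and 296 to 539 for 8 of 8 pericyte markers, 2 of which were at 0 on an array. Microglial markers (10 of 10) summed to 402 to 786 and 157 to 230, with Aif1, C1qa and C1qc at background on all arrays, and blood markers (3 of 6) to 184 to 320 and 110 to 112. Neuroblast markers (7 of 8) ran the other way, at 2198 to 9114 and 26920 to 31766, and mature neuron markers (8 of 8) summed to 1654 to 2218 and 1928 to 3897. Of the neuroblast markers 4 passed, Dcx, Dlx1, Dlx2 and Dlx5, while Tubb3, Stmn2 and Sp8 did not. Dlx2 and Dlx1 were the brightest of them on activated arrays (means 13.56 and 12.78). Whether the sorted cells express these genes themselves was not tested. Astrocyte and quiescent stem cell genes (8 of 8), which adult neural stem cells can share with astrocytes, summed to 87964 to 126361 and 18525 to 23432. Whether stem cells or co-sorted astrocytes gave that signal was not tested. The part of any of these cell types in the results was not tested either. Hybridisation controls were brighter on quiescent arrays (14.02 to 14.94) than on activated arrays (13.65 to 13.74), as was the background (5.45 to 6.10 against 4.52 to 4.67). The Gapdh 3′ minus 5′ control difference, a sign of RNA integrity, was 1.54 to 2.59 on quiescent and 1.19 to 1.51 on activated arrays, and its part in the results was not tested. Rescaling each array to those controls adds 0.64 to every difference, so differences are relative to the deposited scaling, under which the median difference of all tested genes was 0.01.

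Of the 38 tested genes, 18 passed an adjusted p of 0.05 in limma, 8 higher and 10 lower in activated cells. Among the 10 lower, Gstt2 had an activated mean below the filter and entered the test through its quiescent arrays. Over all tested genes 34.9% passed, 17.3% higher and 17.6% lower, and among the 38 the share was 47.4%. The median difference of the 38 was -0.24, and 0.41 after rescaling to the hybridisation controls. A gene that did not pass is not thereby shown to be equal in both groups. Quiescent and activated arrays did not overlap for 24 of the 38, or 63.2%, against 50.7% of all tested genes. Each role held only 3 to 11 tested genes. The share that passed was 63.6% for transferases, 40% for peroxidases, 50% for peroxiredoxins and for the Nrf2 branch, 75% for thioredoxins and 66.7% for metallothioneins. The transferases, the Nrf2 branch and the metallothioneins held all 10 lower calls, and the peroxidases, peroxiredoxins and thioredoxins held 7 of the 8 higher calls, the other being the transferase Gsto1. Every peroxidase and peroxiredoxin call was lost when some single arrays were left out. None of the 4 genes of glutathione synthesis and reduction passed in limma, and none had an unadjusted p under 0.05. The lower calls ran in the direction of the oligodendrocyte, ependymal, vascular and astrocyte marker sums and the higher calls in that of the neuroblast sum. With 2 groups this holds for any call of that direction, and the part of these cells was not tested. Without activated array 2 the higher calls numbered 4. Rescaling to the hybridisation controls gave 9 higher and 6 lower calls, so that 60% of the calls were higher against 44.4% with the deposited scaling. It turned the sign of 7 differences, those of Gstz1, Gpx8, Gclc, Gss, Gsr, Sod1 and Sod2, none of which had passed.

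**Figure D1:**
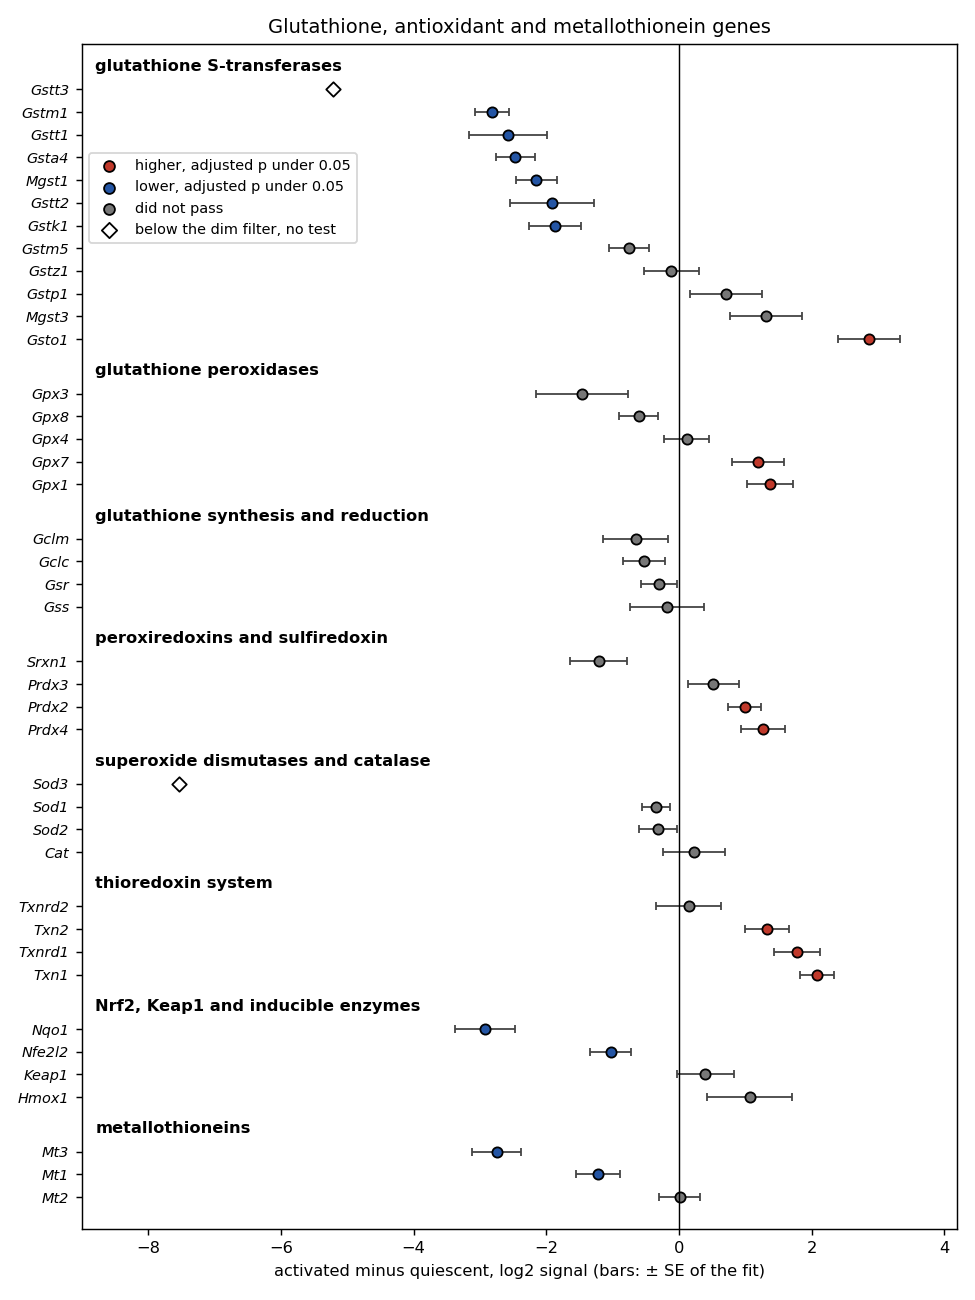
Difference between activated and quiescent cells for the 40 measured genes, grouped by role, on the x axis in log2 signal, with bars for ± SE of the fit (n = 3 arrays per group). Filled circles mark tested genes, red higher, blue lower and grey not passed, and open diamonds mark Gstt3 and Sod3, which were not tested. Blue points lie among transferases, the Nrf2 branch and metallothioneins, and the thioredoxin system holds 3 red points of 4.

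Glutathione S-transferases attach glutathione to reactive compounds. Of 12 genes 11 were tested, of which 6 fell, 1 rose and 4 did not pass, with a median difference of -1.87. Gstm1, a mu-class enzyme, read 14.49, 13.98 and 13.74 on quiescent arrays 1, 2 and 3 and 11.10, 11.32 and 11.33 on activated arrays 1, 2 and 3. The groups were far apart, and Gstm1 fell by 2.82 ± 0.26 (adjusted p = 6.19e-05), a 7.05-fold difference. Its 3 other probe sets differed by -2.98, -2.85 and, for the dimmest, which was at background on 3 arrays, -1.17. Gsta4, an alpha-class enzyme active on lipid peroxidation products such as 4-hydroxynonenal, read 12.25, 12.28 and 11.83 in quiescent and 9.44, 9.45 and 10.07 in activated cells. It fell by 2.46 ± 0.29 (adjusted p = 0.000204), and all quiescent arrays lay above all activated arrays.

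The theta-class genes Gstt1, Gstt2 and Gstt3, which lie in one cluster on chromosome 10, were all dimmer on the activated arrays. Gstt1 read 10.55, 9.09 and 10.47 in quiescent and 8.60, 6.71 and 7.06 in activated cells and fell by 2.58 ± 0.58 (adjusted p = 0.00682). Its closest arrays, quiescent array 2 and activated array 1, were 0.49 apart. Gstt2 fell by 1.91 ± 0.64 (adjusted p = 0.0384), a call that was lost without any 1 array other than quiescent array 3 (adjusted p = 0.0675 to 0.129), after quantile normalization (adjusted p = 0.162), after rescaling to the hybridisation controls (adjusted p = 0.159) and with no filter on dim genes (adjusted p = 0.0574). Gstt3 read 8.30, 8.14 and 8.86 in quiescent and 4.76, 1.36 and 3.53 in activated cells, where activated arrays 2 and 3 were at background. Against background its mean was at least 14.0-fold lower in activated cells. For such a bound, each array of the dimmer group is taken at its signal or at its background, whichever is larger, before averaging.

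Membrane and organelle transferases also differed. Mgst1, a microsomal enzyme that also reduces lipid peroxides, fell by 2.15 ± 0.31 (adjusted p = 0.000586). Gstk1, the kappa-class enzyme of mitochondria and peroxisomes, fell by 1.87 ± 0.40 (adjusted p = 0.00484), and rescaling to the hybridisation controls left it at -1.22 (adjusted p = 0.0503). Mgst3 differed by 1.31 ± 0.54 and did not pass (adjusted p = 0.0851), although its activated arrays lay above its quiescent arrays. It passed after quantile normalization (adjusted p = 0.0298) and after rescaling to the hybridisation controls (adjusted p = 0.0395), while a second, dimmer probe set differed by -1.85.

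Gsto1 was the transferase of the 11 tested that rose. It encodes an omega-class enzyme with thioltransferase and dehydroascorbate reductase activity. It read 7.67, 6.36 and 7.20 in quiescent and 9.52, 10.11 and 10.20 in activated cells, and rose by 2.87 ± 0.46 (adjusted p = 0.00106), a 7.30-fold difference. The groups did not overlap, and its other probe set differed by 2.24. Gstp1, Gstm5 and Gstz1 did not pass, with differences of 0.71, -0.75 and -0.11. For Gstp1, the pi-class enzyme, quiescent array 3 read 13.48, above every activated array (12.64 to 12.98), while quiescent arrays 1 and 2 read 11.98 and 10.71. Without quiescent array 3 its difference was 1.42 (adjusted p = 0.00832).

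**Figure D2:**
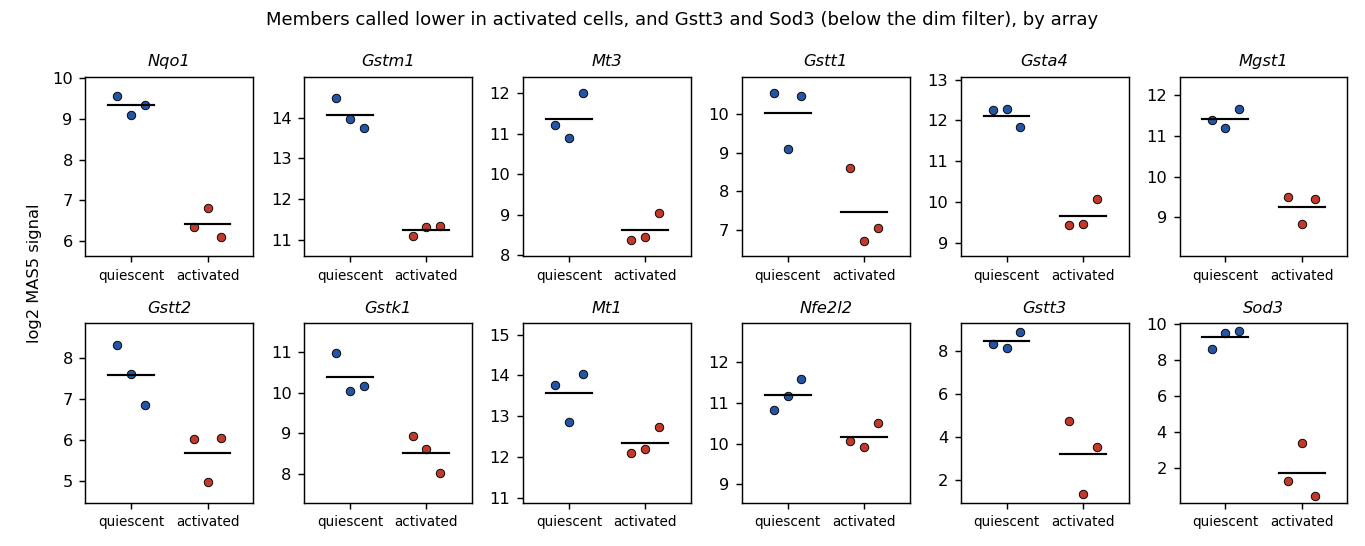
Log2 MAS5 signal (y axis) on each array for the 10 genes that were lower in activated cells and for Gstt3 and Sod3, which were below the filter. Blue points are the 3 quiescent arrays and red points the 3 activated arrays, in replicate order, and bars are group means. In every panel the quiescent arrays lie above the activated arrays, most widely for Sod3.

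Glutathione peroxidases reduce peroxides. Of 5 genes, 2 rose and 3 did not pass, so that 40% passed, close to the 34.9% of all tested genes. Gpx1, the cytosolic and mitochondrial selenoenzyme, read 9.17, 9.79 and 9.65 in quiescent and 11.26, 11.12 and 10.35 in activated cells. It rose by 1.37 ± 0.34 (adjusted p = 0.0112), with activated array 3 nearest to the quiescent arrays. It no longer passed without activated array 1 (adjusted p = 0.0572) or array 2 (adjusted p = 0.0534). Gpx7, an enzyme of the endoplasmic reticulum, read 8.21, 8.20 and 9.06 in quiescent and 9.47, 9.88 and 9.69 in activated cells and rose by 1.19 ± 0.39 (adjusted p = 0.0349). That call was lost without any 1 array other than quiescent array 3 (adjusted p = 0.0687 to 0.124). Gpx8, its relative in the same compartment, differed by -0.60 ± 0.29 (adjusted p = 0.134), and Gpx4, which reduces lipid hydroperoxides in membranes, by 0.12 ± 0.34 (adjusted p = 0.806). Gpx3, a secreted peroxidase, differed by -1.46 ± 0.69 (adjusted p = 0.124) and by -2.03 without quiescent array 2 (adjusted p = 0.0497).

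None of the genes that make and restore glutathione passed. Gclc and Gclm, the catalytic and modifier subunits of glutamate-cysteine ligase, differed by -0.53 ± 0.32 and -0.65 ± 0.49 (adjusted p = 0.217 and 0.325). Gss, the synthetase, differed by -0.18 ± 0.56, and Gsr, the reductase, by -0.30 ± 0.28 (adjusted p = 0.823 and 0.424). Quiescent array 1 was low for Gclm, at 9.13 against 10.81 and 11.11 on the other quiescent arrays, and without it the difference was -1.26 (adjusted p = 0.027). For Gsr the second probe set differed by 1.16, in the other direction from the one used. The second probe sets of Gclm and Gss differed by -1.01 and -0.83.

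Peroxiredoxins are thiol peroxidases that are recycled by thioredoxin. Of the 7 genes of this role 4 were measured, of which 2 rose. Prdx4, the peroxiredoxin of the endoplasmic reticulum, read 10.24, 10.61 and 11.34 in quiescent and 11.63, 12.36 and 12 in activated cells. It rose by 1.27 ± 0.34 (adjusted p = 0.0148), and its 4 probe sets differed by 1.26 to 1.98. It no longer passed without activated array 2 (adjusted p = 0.0731) or array 3 (adjusted p = 0.051). Prdx2, a cytosolic form that is also abundant in red blood cells, read 12.13, 12.75 and 12.10 in quiescent and 13.29, 13.44 and 13.22 in activated cells. It rose by 0.99 ± 0.25 (adjusted p = 0.0122). The 3 matched blood markers, of which Alas2 was tested and did not pass, summed to 184 to 320 on quiescent and 110 to 112 on activated arrays, and the part of blood cells was not tested. Prdx2 no longer passed without activated array 2 (adjusted p = 0.0632) or when probe sets were averaged (adjusted p = 0.203), its second probe set differing by 0.22.

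Prdx3, the mitochondrial peroxiredoxin, differed by 0.52 ± 0.39 (adjusted p = 0.316), with quiescent array 2 lowest at 8.99. Srxn1, sulfiredoxin, which repairs overoxidised peroxiredoxins and is a known Nrf2 target, read 8.60, 9.46 and 8.75 in quiescent and 7.51, 7.99 and 7.67 in activated cells. Its groups did not overlap, and the difference of -1.21 ± 0.43 stood just outside the threshold (adjusted p = 0.0507). It passed under 6 of the 17 alternatives, with adjusted p of 0.0346 to 0.0496, and its 4 probe sets differed by -1.60 to -0.26.

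Thioredoxin and its reductase supply electrons to peroxiredoxins and to ribonucleotide reductase. Of 4 genes 3 rose, the median difference being 1.56. Txn1, the cytosolic thioredoxin, read 10.96, 11.20 and 11.70 in quiescent and 13.33, 13.27 and 13.50 in activated cells and rose by 2.08 ± 0.26 (adjusted p = 0.000254), a 4.24-fold difference. The lowest activated array stood 1.57 above the highest quiescent array. Averaging with a second, dim probe set that differed by 0.40 gave 1.24 (adjusted p = 0.0847). Txnrd1, the cytosolic selenoenzyme that reduces it, read 10.84, 10.44 and 9.50 in quiescent and 12.18, 12.10 and 11.84 in activated cells and rose by 1.78 ± 0.35 (adjusted p = 0.00321). Its 3 probe sets differed by 1.46 to 2.06.

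Mitochondria hold their own thioredoxin and reductase. Txn2, mitochondrial thioredoxin, read 9.38, 9.22 and 10.18 in quiescent and 10.79, 10.96 and 11.02 in activated cells and rose by 1.33 ± 0.33 (adjusted p = 0.0106), with 1.01 to 1.46 over its 3 probe sets. Txnrd2, its reductase, differed by 0.15 ± 0.49 (adjusted p = 0.835), and its 4 probe sets ran from -0.70 to 1.21. Taken as a difference between both reductases on the same array, Txnrd1 minus Txnrd2 was 2.91 ± 1.08 (SD) in quiescent and 4.55 ± 0.05 in activated cells. This contrast is unchanged by a single scaling factor per array, but quantile normalization moved it from 1.63 to 1.16. The two-sided exact permutation p of 0.1 is the lowest possible for 3 against 3 arrays (adjusted p = 0.1 over 4 such pairs, chosen after their values were seen).

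**Figure D3:**
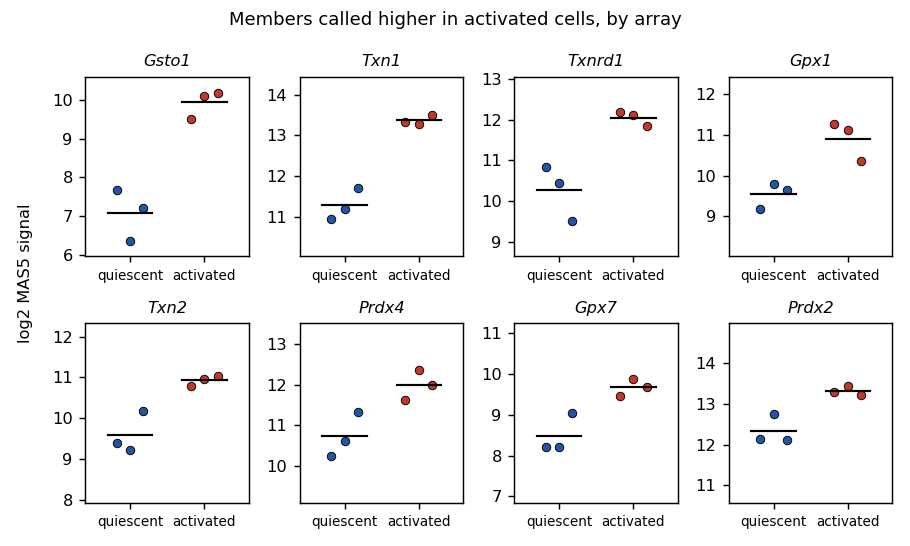
Log2 MAS5 signal (y axis) on each array for the 8 genes that were higher in activated cells. Blue points are the 3 quiescent arrays and red points the 3 activated arrays, in replicate order, and bars are group means. The groups do not overlap in any panel, and the gap is widest for Gsto1 and Txn1.

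Superoxide dismutases and catalase gave 0 calls among the 3 tested genes in limma. Their unadjusted p did not fall under 0.05 in any of the 3. Sod1, the cytosolic copper and zinc enzyme, differed by -0.35 ± 0.21 (adjusted p = 0.221), and Sod2, the mitochondrial manganese enzyme, by -0.31 ± 0.28 (adjusted p = 0.413), its 4 probe sets running from -0.31 to 0.79. Cat, the peroxisomal catalase, read 10.26, 10.80 and 12.40 in quiescent and 11.58, 11.24 and 11.32 in activated cells. Quiescent array 3 was the highest of the 6, and without it the difference changed from 0.23 (adjusted p = 0.721) to 0.86 (adjusted p = 0.0319).

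Sod3, the secreted extracellular dismutase, stood apart. It read 8.64, 9.51 and 9.63 in quiescent and 1.30, 3.38 and 0.49 in activated cells, where all 3 arrays were at background. Against background its mean was at least 25.4-fold lower in activated cells. Its second probe set was dimmer and differed by -3.85. The mean over 6 arrays left Sod3 below the filter, and with no filter on dim genes its adjusted p in limma was 0.000156 and that of Gstt3 0.0016. Sod3 is also made by vascular cells. The endothelial and pericyte marker sums were lower on the activated arrays too (997 to 3284 against 146 to 236, and 4600 to 8598 against 296 to 539). Among the quiescent arrays Sod3 was nearly level on arrays 2 and 3 (9.51 and 9.63), and the order of 3 arrays decides nothing about its source. On array 3 most matched markers of these lists were lowest, such as Kdr (5.32), Tek (6.05) and Vtn (7.20). Cdh5 (7.19) and Pdgfrb (12.05), the brightest pericyte marker, were highest on array 3. The part of vascular cells in the Sod3 values was not tested.

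In the Nrf2 branch 2 of 4 genes fell. Nfe2l2 read 10.84, 11.16 and 11.59 in quiescent and 10.07, 9.91 and 10.51 in activated cells and fell by 1.03 ± 0.31 (adjusted p = 0.0261). The nearest arrays of the groups were 0.32 apart. The second, dimmer probe set read 7.12, 7.19 and 7.07 in quiescent and 4.28, 4.16 and 5.48 in activated cells, a difference of -2.49 with activated arrays 1 and 2 at background. The call was lost after rescaling to the hybridisation controls, which left -0.39 (adjusted p = 0.55), without the variance trend (adjusted p = 0.055) and without quiescent array 2 or 3 or activated array 1 or 2 (adjusted p = 0.0503 to 0.104). Keap1, the adaptor that targets Nrf2 for degradation, read 9.29, 10.63 and 9.06 in quiescent and 10.18, 10.23 and 9.77 in activated cells and differed by 0.40 ± 0.43 (adjusted p = 0.49), with quiescent array 2 above all activated arrays.

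Nqo1, a quinone reductase a widely used marker of Nrf2 activity, read 9.55, 9.10 and 9.35 in quiescent and 6.35, 6.81 and 6.10 in activated cells. The nearest arrays of the groups were 2.29 apart, and Nqo1 fell by 2.92 ± 0.45 (adjusted p = 0.000826), a 7.55-fold difference. Hmox1, heme oxygenase, was dim, at 5.97, 5.48 and 7.57 in quiescent and 7.42, 7.32 and 7.47 in activated cells. Quiescent array 1 was at background and quiescent array 3 was as bright as the activated arrays. The difference of 1.07 ± 0.64 did not pass (adjusted p = 0.218) and was 1.68 without quiescent array 3 (adjusted p = 0.0495). Known Nrf2 targets thus did not all share a sign, since Txnrd1 rose while Nqo1 fell, but these 2 do not stand for an even split. Srxn1 differed by -1.21 and Hmox1 by 1.07, neither passing, and Slc7a11, described below, fell by 2.30. Among the 19 tested partners and further targets described below, 1 rose, 5 fell and 13 did not pass. The difference Txnrd1 minus Nqo1 was 0.93 ± 0.67 (SD) on quiescent and 5.62 ± 0.29 on activated arrays, with a two-sided exact permutation p of 0.1 (adjusted p = 0.1 over the 4 pairs).

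Nrf2 binds the antioxidant response element, whose core was searched as TGACNNNGC on both strands in the 250 bases upstream of RefSeq transcription starts (GRCm38.p6). Of the 43 genes 36 had a promoter in the RefSeq table. The core was in 8 of these, or 22.2%, against 11.5% of 27025 genes. The windows of the 7 measured genes among them are shown, since they hold genes that fell, rose and did not pass. Each is 30 bases, printed 5′ to 3′ on the strand that reads the core, with the core in capitals.
Nfe2l2, chr2:75704884-75704913, minus strand: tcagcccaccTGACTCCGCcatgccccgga
Mgst1, chr6:138140461-138140490, minus strand: accccgcctccTGACCGTGCcaagccccgc
Txnrd1, chr10:82859104-82859133, minus strand: ccgtgtcagaaTGACAAAGCaaaaatccag
Gclm, chr3:122245413-122245442, minus strand: ctcgtgagagtTGACGGTGCgcccgggagc
Gstm5, chr3:107895802-107895831, plus strand: caccgcccacTGACCACGCggagggcgggt
Sod1, chr16:90220696-90220725, minus strand: aggcctgagtcTGACCACGCccaccttggc
Mt2, chr8:94172529-94172558, plus strand: aaagggggtgTGACTCAGCgcggggggtgg

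Of these 7 genes, Nfe2l2 and Mgst1 fell, Txnrd1 rose, and Gclm, Gstm5, Sod1 and Mt2 did not pass. Nqo1 had no match to these letters in this window. A match is a string of letters and not a measured binding site, and enhancers outside the window were not searched.

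Metallothioneins Mt1, Mt2 and Mt3 lie side by side on chromosome 8 and did not move alike. Mt1 and Mt2 are the widely expressed metal-induced forms, and Mt3 is the form best known from brain. Mt3 read 11.22, 10.88 and 11.99 in quiescent and 8.37, 8.46 and 9.03 in activated cells and fell by 2.75 ± 0.37 (adjusted p = 0.000389), a 6.71-fold difference. Mt1 read 13.77, 12.86 and 14.04 in quiescent and 12.11, 12.19 and 12.73 in activated cells, where quiescent array 2 came within 0.13 of activated array 3. It fell by 1.22 ± 0.33 (adjusted p = 0.0159). Its call was lost after rescaling to the hybridisation controls (-0.57, adjusted p = 0.247), without the variance trend (adjusted p = 0.0532) and without activated array 1 (adjusted p = 0.0653) or activated array 2 (adjusted p = 0.0655).

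The Mt1 probe set used is of a kind whose probes can match several transcripts. Those used for Gstm1, Gsto1, Txn2, Gpx4, Gss and Sod1 are of such kinds too. Gstm1, Gsto1 and Txn2 kept their calls when such probe sets were left out. The dimmer Mt1 probe set, which is not of that kind, read 9.98, 9.55 and 10.08 in quiescent and 7.68, 6.44 and 5.56 in activated cells, a difference of -3.31 (adjusted p = 0.00126 when probe sets of such kinds were left out). Mt2 read 13.18, 12.89 and 14.10 in quiescent and 13.37, 13.35 and 13.48 in activated cells. All activated arrays lay within the quiescent range, and the difference was 0.01 ± 0.31 (adjusted p = 0.983). On the same arrays Mt3 minus Mt2 was -2.03 ± 0.08 (SD) in quiescent and -4.78 ± 0.30 in activated cells, and Mt1 minus Mt2 was 0.17 ± 0.37 and -1.06 ± 0.28. The two-sided exact permutation p was 0.1 for each, the lowest possible (adjusted p = 0.1 over the 4 pairs). These pairs too were chosen after their values were seen, so the p adds no support.

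The metal response element, bound by the zinc-sensing factor Mtf1, was searched as TGCACNC and TGCGCNC on both strands. In the 250 bases upstream of the RefSeq start used, Mt2 held 3 matches, Mt1 held 1 and Mt3 held 0. Bases downstream of that start were not searched. The counts therefore depend on the start used and do not give all elements of a gene, which matters most for Mt1. Over 27025 genes, 11.8% held the first form and 14.0% the second, and of the 36 promoters here 4 and 9 did. The 250 upstream bases of Mt2 and Mt3 are shown with matches in capitals, plus strand, because Mt3 fell and Mt2 did not pass. For Mt1, where the RefSeq table also lists a gene start further upstream, a 30-base window is shown.
Mt2, chr8:94172368-94172617: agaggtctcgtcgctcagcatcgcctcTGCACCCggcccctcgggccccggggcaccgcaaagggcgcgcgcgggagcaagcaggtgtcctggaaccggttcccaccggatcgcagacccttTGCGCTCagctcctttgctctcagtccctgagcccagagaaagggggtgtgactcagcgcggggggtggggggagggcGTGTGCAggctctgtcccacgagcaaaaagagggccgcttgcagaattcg
Mt3, chr8:94152357-94152606: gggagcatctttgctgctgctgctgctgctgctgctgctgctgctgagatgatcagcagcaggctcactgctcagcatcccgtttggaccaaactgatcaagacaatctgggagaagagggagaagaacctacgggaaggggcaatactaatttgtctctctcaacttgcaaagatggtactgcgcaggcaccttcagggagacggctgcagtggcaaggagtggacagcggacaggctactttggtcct
Mt1, chr8:94179056-94179085: ggtcccgctgTGCACACtggcgctccaggg

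These matches describe letters in a window and say nothing of binding in these cells. Mtf1 itself differed by -0.70 ± 0.39 (adjusted p = 0.182).

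Probe sets of a gene mostly shared a direction. Of the 23 genes with more than 1 probe set, 17 had all of them on one side of 0. The exceptions were Cat, Gsr, Mgst3, Sod1, Sod2 and Txnrd2, none of which had passed. Among the called genes, the largest spread was that of Mt1, from -3.31 to -1.22.

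**Figure D4:**
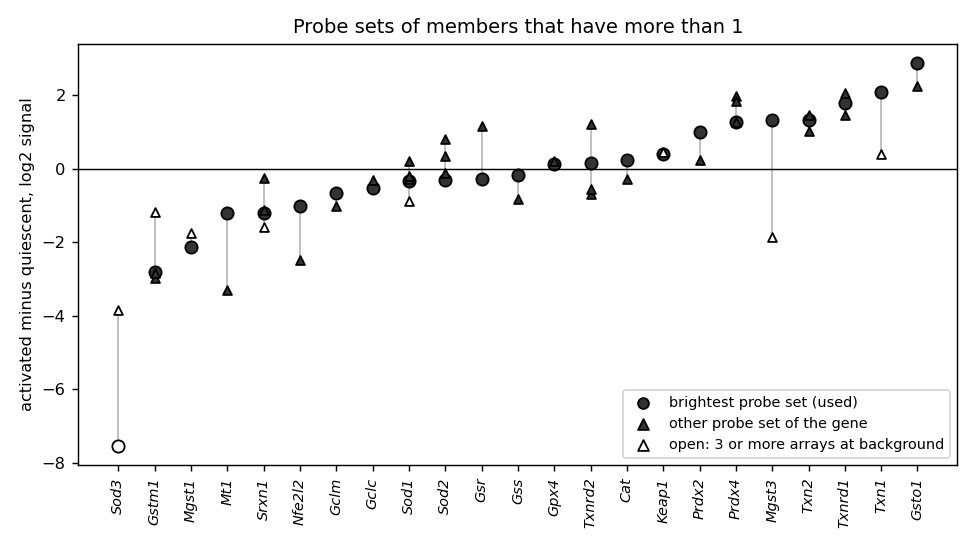
Difference between activated and quiescent cells (y axis, log2 signal) for each probe set of the 23 genes that have more than 1. Circles are the brightest probe set, which was used, triangles are the others, and open symbols were at background on 3 or more arrays. For Mt1 and Nfe2l2 the dimmer probe set differs more than the one used, and for Txn1 and Mgst3 the outlying probe set is an open symbol.

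The wider pathway was described with 123 further genes in 8 lists, of which 98 were tested. Of these 14 rose and 29 fell, or 43.9%, against 34.9% of all tested genes, and the median was -0.50. Of the lower genes, 7 (Gsta3, Ptges, Oplah, Ephx1, Osgin1, Slc40a1 and Aox1) had an activated mean below the filter and entered the test through their quiescent arrays, and Chac1 entered it through its activated arrays, so these counts are a description. After rescaling to the hybridisation controls the median of the 98 was 0.14. The list median was below 0 for 6 lists and turned positive for NADPH supply (0.20) and for Nrf2 partners (0.003) after rescaling to the hybridisation controls. Among other transferases 1 of 5 tested genes rose and 3 fell, or 80%. Gsta3, an alpha-class enzyme, fell by 2.21 ± 0.62 (adjusted p = 0.0192), and Gstcd rose by 1.53 ± 0.34 (adjusted p = 0.0063).

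In the supply, breakdown and export of glutathione 1 of 15 genes rose and 6 fell, or 46.7%, against 34.9% of all tested genes. Oplah, the oxoprolinase that returns glutamate from the breakdown of glutathione, was at least 18-fold lower in activated cells (adjusted p = 0.000456), with activated array 3 at background. Chac1, an enzyme that cleaves glutathione, was at least 4.05-fold higher (adjusted p = 0.0152), with quiescent arrays 1 and 3 at background. Slc7a11, the cystine importer that feeds glutathione synthesis and a known Nrf2 target, was picked after its values were seen. It read 9.89, 10.49 and 11.00 in quiescent and 8.39, 7.58 and 8.50 in activated cells and fell by 2.30 ± 0.42 (adjusted p = 0.00206).

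Glutaredoxins, thioredoxin relatives and methionine sulfoxide reductases gave 5 rises and 3 falls among 17, or 47.1%, against 34.9% of all tested genes. Glrx, glutaredoxin, rose by 2.08 ± 0.56 (adjusted p = 0.0157), and Nxn, nucleoredoxin, fell by 1.65 ± 0.37 (adjusted p = 0.0062). For NADPH supply 1 of 8 rose and 2 fell, or 37.5%, close to that share. Pgls, of the pentose phosphate pathway, rose by 1.83 ± 0.37 (adjusted p = 0.00404), and the cytosolic malic enzyme Me1 fell by 2.29 ± 0.41 (adjusted p = 0.00178). The mitochondrial malic enzyme Me3, picked after its values were seen and below the filter, read 2.52, 2.07 and 2.57 in quiescent cells, all at background, and 9.52, 9.05 and 9.74 in activated cells, at least 13.6-fold higher.

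Partners and further targets of Nrf2 gave 1 rise and 5 falls among 19, or 31.6%, close to the 34.9% of all tested genes. Ephx1, the microsomal epoxide hydrolase, was at least 10.1-fold lower (adjusted p = 0.00263), with activated array 3 at background, and Blvrb, a biliverdin reductase, was at least 3.12-fold higher (adjusted p = 0.047), with quiescent array 1 at background. For zinc, copper and iron handling 0 of 11 rose and 3 fell, or 27.3%, below the 34.9% of all tested genes. Slc40a1, the iron exporter ferroportin, was at least 6.25-fold lower (adjusted p = 0.0131). Slc30a1, the zinc exporter that Mtf1 induces, was picked after its values were seen and fell by 2.19 ± 0.33 (adjusted p = 0.00073), from 12.63, 11.97 and 13.02 to 10.60, 9.91 and 10.54.

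Other selenoproteins and the machinery of selenocysteine gave 5 rises and 3 falls among 16, or 50%, against 34.9% of all tested genes. Selenop, the selenium carrier, fell by 3.15 ± 0.25 (adjusted p = 3.71e-05), and Selenoh, a nucleolar selenoprotein, rose by 3.58 ± 0.25 (adjusted p = 3.16e-05). Among 7 tested oxidant sources 0 rose and 4 fell, or 57.1%. Aox1, an aldehyde oxidase, was at least 51.9-fold lower in activated cells (adjusted p = 0.000238), with 2 activated arrays at background. The lower calls in these lists share the direction of the oligodendrocyte, ependymal, endothelial and pericyte marker sums given above. They share it too with the astrocyte and quiescent stem cell sum, whose source in stem cells or astrocytes was not tested. With 2 groups this holds for any lower call, and the part of these cells was not tested.

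**Figure D5:**
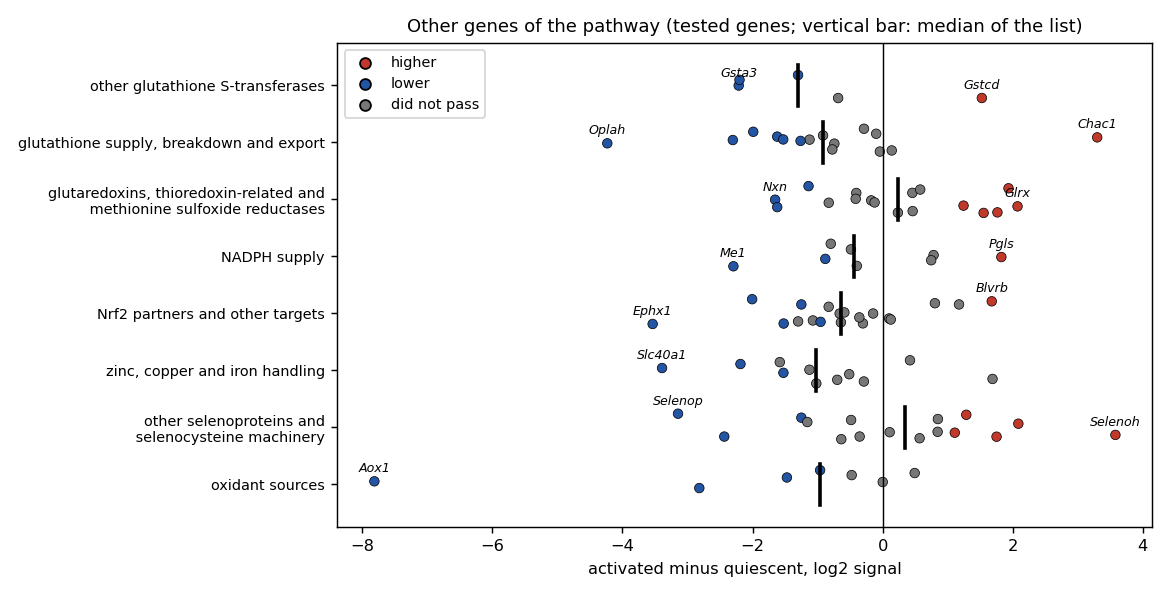
Difference between activated and quiescent cells (x axis, log2 signal) for the 98 tested genes of 8 further lists. Each point is a gene, red higher, blue lower and grey not passed, black bars are list medians, and the called gene with the largest difference in each direction is named. Red and blue points occur together in every list except the metal and oxidant source lists, which hold blue and grey points only.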

How the data were processed

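RNA of 3 quiescent and 3 activated samples was measured on one-colour arrays of 45101 probe sets. RNA was extracted with a miRNeasy kit and amplified with a NuGEN Pico kit, per the labels' protocols. The deposited values are log2 signals computed by the authors with MAS5, per the submitters' processing notes, in a version that the sources used here do not name. On each array the mean of linear signals, trimmed by 2% at each end, was between 499.86 and 499.88, so the scaling hides differences in total RNA between samples.

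Apart from 64 control probe sets, 34945 had 1 annotated gene, 932 had more and 9160 had no gene. Symbols were updated by Entrez identifier through RefSeq (99.4% found). A gene entered the test with a mean of at least 6.02, the 40th percentile over probe sets. The fit used lmFit and eBayes, with a variance trend (limma 3.58.1, R 4.3.3), and genes were called at an adjusted p under 0.05. No pseudocount was added. Background was the 95th percentile of 27 bacterial control probe sets. The fit was first checked on simulated data, where it missed most changes of the smaller simulated sizes. Figures were drawn with matplotlib 3.10.9.

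The genes, their lists and the tests were chosen with earlier results of these data known. All 3 metallothioneins and the 4 Nrf2 branch genes are given in full, as are, in each other role, up to 4 called genes with the largest differences and the largest called one in the opposite direction. From each further list the called gene with the largest difference in each direction is named, and Slc7a11, Slc30a1 and Me3 were added after their values were seen. Promoters came from the RefSeq table of GRCm38.p6.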

Additional observations from a re-analysis of the deposited data

How the results depend on the processing

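Over 17 alternatives (filters, a pseudocount of 16, scalings, probe set rules, variance settings, a block for the replicate number, and leaving out each array), 9 of the 18 called genes kept their call under each alternative that could test them, 9 lost it under at least 1, and 7 of 20 others passed under at least 1. No called difference changed sign. Member counts that moved by over 1.5 times were 6 lower after rescaling to the hybridisation controls and 4 higher without activated array 2. With 1 array left out, higher calls ranged from 4 to 11 and lower calls from 7 to 11, and over all genes from 1315 to 2440 and from 1540 to 2176. Rescaling to the hybridisation controls gave 3061 higher and 943 lower genes in all, and 76.4% of the calls were then higher, against 49.6%. The cause of these changes was not tested. MAS5 values near background limit Gstt3, Sod3 and Hmox1.

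Deviations of same-numbered arrays from their group means correlated at 0.06, -0.02 and 0.03, against -0.08 to 0.05 for arrays of different number. No pairing by replicate number was seen, but these correlations cannot exclude a shared preparation. With the replicate block the members gave 8 higher and 9 lower calls, with the Gstt2 call lost (adjusted p = 0.0503), and all genes gave 1955 and 1979.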
